A study of Mus musculus with 8 samples.

Results

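Regions named for the long noncoding RNAs Malat1, Neat1, Miat and Snhg11 were examined for RNA crosslinked to Ptbp2 in the embryonic mouse cortex. Each region was given as an interval on one strand of the mm9 build, and a sequenced tag was assigned to it when its midpoint lay inside. Malat1 was taken as chr19:5795600-5802700 on the minus strand, Neat1 as chr19:5824700-5845500 on the minus strand, Miat as chr5:112642000-112658500 on the minus strand, and Snhg11 as chr2:158201000-158212500 on the plus strand. The 4 intervals held 3212 of 3098854 mapped tags, or 0.104%: 2642 in Malat1, 494 in Miat, 61 in Snhg11 and 15 in Neat1. The intervals were chosen by their tag counts in these same libraries, so the levels below are a description and carry no test.

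Ptbp2 is the neuronal relative of the polypyrimidine tract binding protein. It binds pyrimidine-rich RNA and regulates alternative splicing during neuronal development. Malat1 is an abundant RNA that is retained in the nucleus and gathers at nuclear speckles, where splicing factors are stored. Neat1 is the scaffold of paraspeckles and is made as a short and a long isoform that share their 5′ end. Miat, also called Gomafu, is a nuclear RNA of neurons, and Snhg11 is a small nucleolar RNA host gene expressed in the nervous system.

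The libraries came from the cortex of wild-type CD1 embryos at embryonic day 18.5. Of each of 2 brains 4 libraries were made, with no treatment or other genotype. In HITS-CLIP, ultraviolet light links a protein to RNA in contact with it, an antibody pulls the protein down, and the RNA fragments that come with it are sequenced as tags. Libraries held 228424 to 545387 tags of 27 to 30 nt, 1932995 in brain 1 and 1165859 in brain 2. Libraries of a brain share an animal, so the spread and the p-values below measure differences between libraries, and a difference between the brains is one between 2 animals. No input RNA or other antibody was analysed here, so binding per molecule, RNA per cell and the number of cells that make an RNA cannot be told apart. The tissue label was not checked against marker genes, because no gene annotation of mm9 was at hand. RefSeq's GRCm38.p6 gene table lists all 4 symbols as long noncoding RNAs, and its promoter table gives the strand used here for the 3 it holds, Malat1, Miat and Snhg11.

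Malat1 was densely tagged in every library. The 4 libraries of brain 1 held 486, 461, 381 and 396 Malat1 tags, which is 891, 1006, 829 and 843 tags per 1000000 of the library (CPM). Those of brain 2 held 156, 237, 279 and 246, or 583, 719.96, 819 and 1077 CPM. Library 1 of brain 2 was the lowest and library 4 of brain 2 the highest, so brain 2 spanned the whole range of brain 1. Brain 1 averaged 892 ± 80.3 CPM and brain 2 averaged 799.7 ± 208 CPM (SD, n = 4 libraries each). At 372 pooled tags per kb, Malat1 ranked 3 among 34814 intervals and strand-specific 10 kb windows of the genome with 20 or more tags, whose median was 3.2 tags per kb. A 10 kb window averages over more sequence than the shorter Malat1 interval does.

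Miat was tagged at a lower and steadier level. Brain 1 held 91, 82, 71 and 79 tags, or 167, 179, 154 and 168 CPM, and brain 2 held 33, 39, 60 and 39, or 123, 118, 176 and 171 CPM. Libraries 1 and 2 of brain 2 lay below all of brain 1, and the other two of brain 2 lay within its range. The means were 167 ± 10.02 and 147 ± 30.4 CPM (SD, n = 4 libraries each). At 29.9 tags per kb Miat ranked 110 of the same 34814 regions.

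Snhg11 had few tags. Brain 1 held 8, 12, 6 and 14, or 14.7, 26.2, 13.1 and 29.8 CPM, and brain 2 held 4, 7, 4 and 6, or 14.96, 21.3, 11.7 and 26.3 CPM. The brains overlapped over most of their range, with means of 20.9 ± 8.32 and 18.6 ± 6.49 CPM (SD, n = 4 libraries each). Its 5.30 tags per kb lay above 79.6% of the same regions. Neat1 had 1, 1, 1 and 2 tags in brain 1 and 0, 2, 2 and 6 in brain 2. All but the last of these 8 counts lie below the 3 tags that a count of 0 allows for, which correspond to 5.50 to 13.1 CPM across the libraries. The highest, 26.3 CPM in library 4 of brain 2, held 6 of the 15 Neat1 tags.

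**Figure D1:**
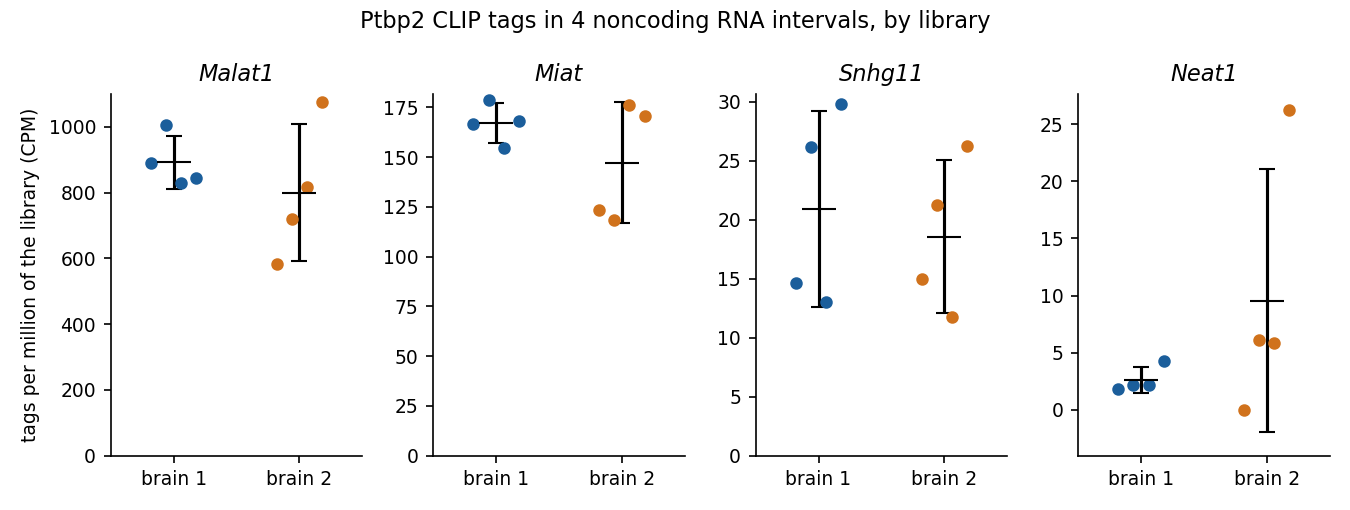
Tags per 1000000 of the library (CPM, vertical axis, a separate scale for each RNA) in brain 1 and brain 2, with 1 point per library and the mean with its SD in black. Malat1 libraries of brain 2 run from 583 to 1077 CPM and enclose those of brain 1, while Neat1 has a single library at 26.3 CPM and the rest at 6.08 CPM or less.

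Per kb of interval the order was Malat1, Miat, Snhg11 and Neat1, and each neighbouring pair kept that order in 8 of 8 libraries. Malat1 ranged from 82.2 to 152 CPM per kb, Miat from 7.18 to 10.8, Snhg11 from 1.02 to 2.59 and Neat1 from 0 to 1.26. The first 3 did not overlap, whereas the highest Neat1 library lay above the lowest Snhg11 library. In pooled tags per kb, Malat1 stood 12.4-fold above Miat and Miat 5.64-fold above Snhg11. Snhg11 stood 7.36-fold above Neat1, a ratio that rests on 15 Neat1 tags.

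Malat1, Miat and Snhg11 stood out from their surroundings. Flanks of the same length on the same strand held 2 tags upstream and 3 downstream of Malat1, 1 and 6 beside Miat, and 2 and 2 beside Snhg11. The opposite strand of the Malat1 interval held 0 tags, which allows up to 0.140% of the tags of both strands (exact binomial 95% limit). Miat had 2 tags on the opposite strand and Snhg11 had 3. The Neat1 interval did not stand out: it held 0.721 tags per kb against 1.35 in its upstream and 2.31 in its downstream flank. Tags under the name Neat1 were thus no denser than those beside them on the same strand, and the name is kept here only for the interval.

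The tags of Malat1 covered 72.6% of its interval, those of Miat 23.7%, Snhg11 8.07% and Neat1 1.27%. The first Malat1 tag lay 124 nt from the 5′ edge of its interval, and the first tags of Miat, Snhg11 and Neat1 lay 1169, 935 and 4169 nt from theirs. In bins of 100 nt, 66 of 72 Malat1 bins, 84 of 166 Miat bins, 26 of 116 Snhg11 bins and 9 of 209 Neat1 bins held a tag. Coverage was uneven within each RNA, since 6 bins held 50% of the Malat1 tags and 8 bins held 50% of the Miat tags.

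**Figure D2:**
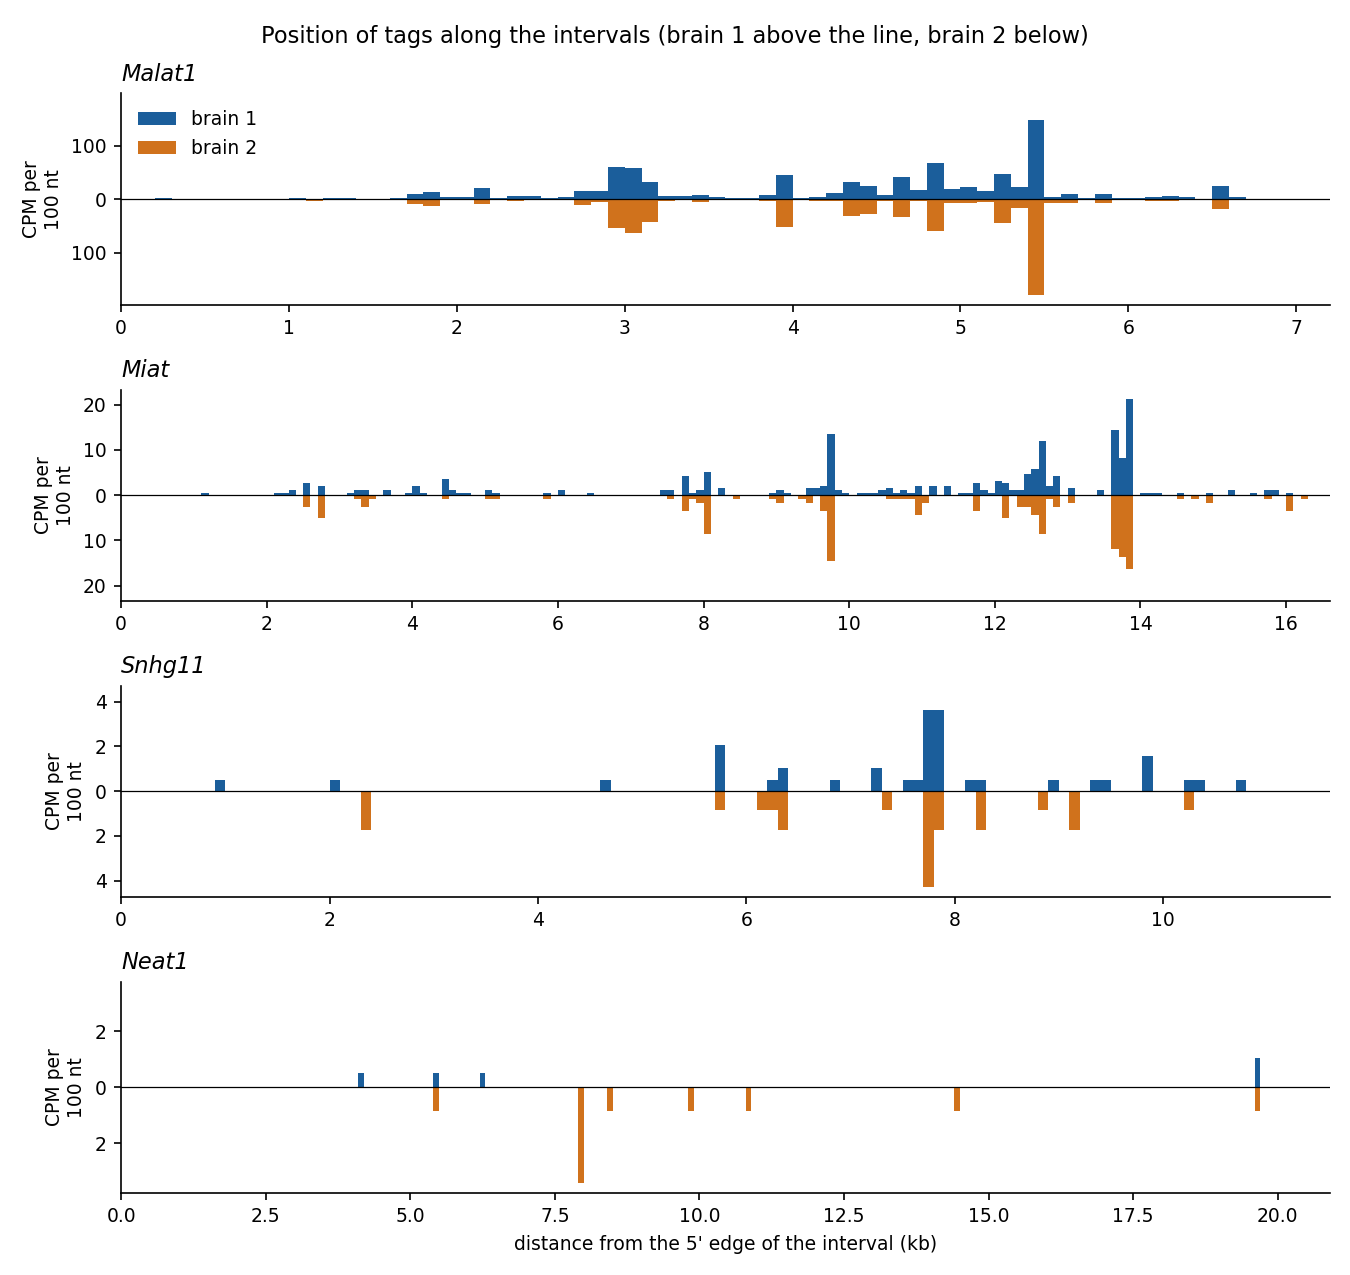
CPM per bin of 100 nt against distance from the 5′ edge of each interval in kb, with the pooled libraries of brain 1 above the line and those of brain 2 below it. The tallest Malat1 bin spans 5400 to 5500 nt in both brains, Miat peaks in its 3′ part at 13800 to 13900 nt, and Neat1 shows 9 isolated bins.

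The Malat1 bin from 5400 to 5500 nt was the fullest, with 494 tags or 18.7% of the total, and the Miat bin from 13800 to 13900 nt held 60 tags or 12.1%. The fullest Snhg11 bin, from 7700 to 7800 nt, held 12 of 61. Across bins, the pooled CPM of the brains correlated at r = 0.98 in Malat1 (72 bins), 0.91 in Miat (166 bins) and 0.68 in Snhg11 (116 bins). These are descriptions across positions of one RNA, which share libraries and empty bins, and not a test. On log2 values the same r were 0.89, 0.80 and 0.58.

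The 5′ part of Malat1, Miat and Snhg11 held the smaller share of their tags. The 5′ 50% of the interval held 31.8% of Malat1 tags (839 of 2642, exact Clopper-Pearson 95% interval 29.98 to 33.6%). It held 21.5% of Miat tags (106 of 494, 17.9 to 25.3%) and 8.20% of Snhg11 tags (5 of 61, 2.72 to 18.1%). These 95% intervals take every tag as independent, although 44.4% of Malat1 tags repeat a position within their library. With each position counted once per library, the Malat1 share ran from 31.6 to 39.7% across libraries. Its means, 35.7% for brain 1 and 38.0% for brain 2, lay above the 95% interval given. The Miat means in that setting, 25.0% for brain 1 and 20.9% for brain 2, lay within the one for Miat. Of 3 equal parts from 5′ to 3′, Malat1 held 7.68, 44.9 and 47.5% of its tags, so its middle and last parts were near each other and the first was sparse. Miat held 11.7, 29.8 and 58.5%, and Snhg11 6.56, 29.5 and 63.9%. In Neat1, 10 of 15 tags lay in the 5′ 50%, but 0 of 15 lay in the first 3200 nt, the part near the start that both isoforms share, which allows a share of up to 20%. The intervals are rounded and need not begin at the start of the RNA.

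No difference in the 5′ share between the brains passed the test. In Malat1 it was 31.8 ± 3.51% of tags in brain 1 and 31.5 ± 3.20% in brain 2 (n = 4 libraries each, SD; two-sided exact permutation p = 0.914). In Miat it was 21.9 ± 7.66% and 19.7 ± 8.46% (exact permutation p = 0.657). For Snhg11 (p = 1.00) and Neat1 (p = 0.8286) the exact permutation tests rest on a few tags per library. All 4 adjusted p-values were 1.00, and 4 against 4 libraries cannot give an exact p below 0.0286.

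A minority of positions carried most Malat1 tags. Its 2642 tags fell on 799 distinct positions, counted by start and end, and the 180 positions seen in both brains held 67.0% of the tags. A position with many tags is more likely to be seen in both brains, which raises that share. The fullest position, at chr19:5797238-5797265, held 151 tags from all 8 libraries, or 5.72% of the total. Miat had 277 positions, of which 38 occurred in both brains and held 38.7% of its tags, and its fullest, at chr5:112644789-112644818, held 23 tags from 7 libraries. Snhg11 shared 3 of 44 positions between brains. Neat1 shared 0 of 11, and its fullest position, at chr19:5837506-5837533, held 4 tags that all came from library 4 of brain 2.

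Tags that repeat the start, end and strand of another in their library made up 44.4% of Malat1 tags, 21.1% of Miat tags, 13.1% of Snhg11 tags and 26.7% of Neat1 tags, against 11.5% of all tags. Over all tags the share ran from 8.09 to 18.6% per library, highest in library 4 of brain 2. Repeats can be copies of one molecule or separate molecules cut alike, and which they are was not tested. With each position counted once per library, Malat1 fell to 532 CPM from 846 over the 8 libraries.

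Malat1 and Miat tags were long. Of Malat1 tags 53.6% had the full 30 nt, and of Miat tags 64.6%, against 43.1% of tags outside the intervals. Malat1 ranged from 46.2 to 59.8% and Miat from 51.5 to 75.9% across libraries, and both lay above the outside tags of the same library in 8 of 8. In Malat1 the share was 53.1 to 59.8% in brain 1 and 46.2 to 51.3% in brain 2, without overlap, and this was not tested. Tags outside the intervals ran from 42.2 to 44.7% in brain 1 and from 39.8 to 44.2% in brain 2, with overlap. How many other regions show such a gap was not counted. Snhg11 lay above the outside tags in 4 of 8 libraries. With each position counted once the shares were 52.8% in Malat1, 59.7% in Miat and 41.5% outside.

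**Figure D3:**
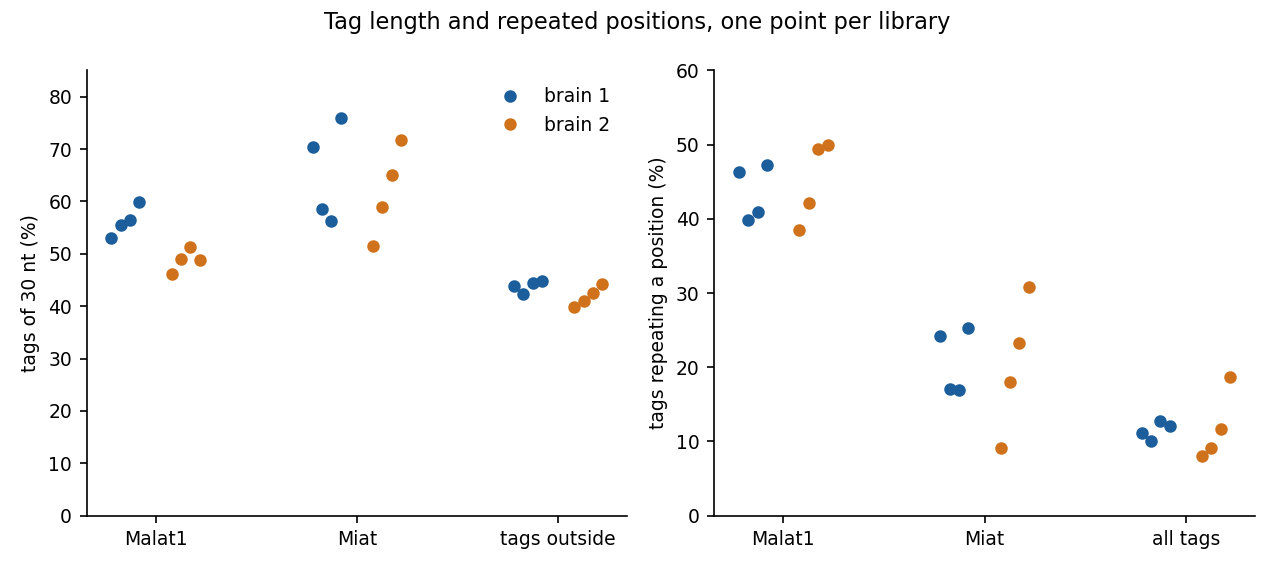
Percent of tags that are 30 nt long (one panel) and percent of tags at repeated positions (other panel), with 1 point per library, in Malat1, Miat and the tags used for comparison. Every library of Malat1 and Miat lies above the tags outside for length, which run from 39.8 to 44.7%.

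Overlapping tags of all libraries were joined into clusters, whose height is the depth of tags at the fullest base. Malat1 held 21 clusters of height 10 or more, with 92.8% of its tags, and their highest bases lay between 1851 and 6554 nt from the 5′ edge. Of these clusters 12 held tags of all 8 libraries. Their median width was 104 nt and median height 36, against 42 nt and 14 for all 22803 such clusters of the genome. Miat held 10 clusters with 59.7% of its tags, with a median width of 83.5 nt and a median height of 14, and 5 of them held all 8 libraries. Snhg11 held 1 cluster, at chr2:158208733-158208780, with 12 tags from 5 libraries. Neat1 held 0, and its tallest stack was 4 tags high.

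The tallest Malat1 cluster, chr19:5797207-5797352, reached a height of 474 and ranked 13 of 22803. It held 88, 83, 77 and 68 tags in brain 1 and 42, 63, 65 and 57 in brain 2, or 20.6% of all Malat1 tags. The libraries ranged from 145 to 249.5 CPM, highest in library 4 of brain 2, and the brains overlapped. The next were chr19:5799671-5799801 (height 182, rank 63), chr19:5798632-5798817 (height 133, rank 126), chr19:5797356-5797450 (height 127, rank 133) and chr19:5797547-5798092 (height 100, rank 214). These 5 are the Malat1 clusters among the 220 of the genome with a height of 100 or more. The last was the widest of them, at 546 nt with 477 tags on 150 distinct positions.

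The tallest Miat cluster, chr5:112644722-112644856, had a height of 41, ranked 1348 and held 74 tags: 12, 9, 11 and 12 in brain 1 and 4, 7, 13 and 6 in brain 2. Its neighbour at chr5:112644589-112644703 had a height of 30 and 60 tags. The highest bases of both lie in the 3′ part of the interval, at 13693 and 13876 of its 16501 nt. The cluster at chr5:112648698-112648846, 9722 nt from the 5′ edge, had a height of 38 and 46 tags. Those at chr5:112645792-112645877 and chr5:112650420-112650500 had heights of 29 and 17. All 5 had tags of both brains.

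The brains were then compared with limma's voom method over all windows of the genome, with library scaling by a trimmed mean of log ratios. Malat1 and Miat passed the filter on low counts, and neither differed beyond its error. Malat1 had 836 ± 49.0 scaled CPM in the first brain and 839 ± 134 in the other (SD, n = 4 libraries each), a log2 change of −0.0042 ± 0.10 (SE, 95% interval −0.21 to 0.20, limma adjusted p = 0.992). Miat had 157 ± 8.88 and 155 ± 19.02 scaled CPM, a log2 change of −0.0018 ± 0.14 (95% interval −0.29 to 0.28, limma adjusted p = 0.995). So 0 of the 2 tested were called, and 0 had an unadjusted p under 0.05, where 1.2% of the 3755 tested regions were called (45, and 390 at an unadjusted p under 0.05). With total tags as scaling, which moved the median of all regions to −0.21, the log2 changes were −0.19 in Malat1 (limma adjusted p = 0.610) and −0.20 in Miat (0.641). Snhg11 and Neat1 did not reach the count filter. Without the filter Snhg11 had a log2 change of −0.07 ± 0.39 (SE, limma adjusted p = 0.980).

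The ratios between the RNAs, which need no scaling, also showed no difference beyond the library spread. The log2 ratio of Malat1 to Miat tags was 2.41 ± 0.07 in brain 1 and 2.42 ± 0.23 in brain 2 (n = 4 libraries each, SD; two-sided exact permutation p = 0.971). The largest differences were those of Neat1, whose log2 ratio to Miat was 1.26 higher in brain 2 (exact permutation p = 0.171). Ratios were taken with 0.5 added to each count, and the value of library 1 of brain 2, with 0 Neat1 tags, rests on that addition. Without that library the difference was 1.84 (exact permutation p = 0.0286, the smallest that 4 against 3 can give, adjusted 0.0571, with the same p for the other Neat1 ratios), and without library 4 of brain 2 it was 0.69. Over the 6 pairs the adjusted p-values were 0.400 for the 3 with Neat1 and 0.971 for the others.

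Along Malat1, 1 cluster was called between the brains. Of its 21 clusters 9 passed the filter, and the one called was the broad one at chr19:5797547-5798092. It held 99, 99, 75 and 71 tags in brain 1 and 15, 42, 31 and 45 in brain 2. Scaled, these were 196, 230, 171 and 162 CPM in brain 1 and 55.8, 136, 84.3 and 156 CPM in brain 2, so that every library of brain 2 lay below every one of brain 1. The log2 change was −0.90 ± 0.21 (SE, 95% interval −1.32 to −0.47, limma adjusted p = 0.0143), and the means were 190 ± 30.2 and 108 ± 45.9 scaled CPM (SD, n = 4 libraries each). Of all 466 clusters tested 1.29% were called, and 0.215%, this cluster alone, were called lower in brain 2. That this cluster differs was known from earlier results of these data, so its call is no independent support.

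The call was not kept under each scaling, nor without each library. Without scaling the brains overlapped, since library 4 of brain 2 had 197 CPM. The scaling factor of that library was 1.27 and those of the others 0.926 to 1.08. Scaling by total tags alone gave a log2 change of −0.72 (limma adjusted p = 0.0763), beside a median of 0.16 over all clusters. Without library 1 of brain 1 the log2 change was −0.93, no smaller, but the call was lost (limma adjusted p = 0.0698, 325 clusters tested). It was also lost without library 1 of brain 2 (−0.57, limma adjusted p = 0.178) or library 3 of brain 2 (−0.77, 0.185).

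The other 8 tested Malat1 clusters did not pass. With each position counted once per library, 1 of them, the cluster from 5798165, passed as well, at a log2 change of −0.54 (limma adjusted p = 0.0475). In that setting 5.56% of the 72 clusters tested (4) were called. The tallest had 174 ± 15.1 scaled CPM in brain 1 and 183 ± 21.4 in brain 2, a log2 change of 0.08 ± 0.14 (SE, limma adjusted p = 0.817). The cluster at chr19:5799671-5799801 had a log2 change of −0.27 ± 0.20 (limma adjusted p = 0.468) and that at chr19:5797356-5797450 one of −0.36 ± 0.23 (0.387). In 6 of the 9 the log2 change was below 0, as in 48.7% of all clusters tested. The median log2 change was −0.36 over the 9 and 0.017 over all clusters tested. After scaling 3 of the 9 did not overlap between brains, all lower in brain 2, a pattern that 6.44% of all tested clusters showed. In unscaled CPM 0 of the 9 were without overlap, and the share of all tested clusters without overlap in unscaled CPM was not counted.

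**Figure D4:**
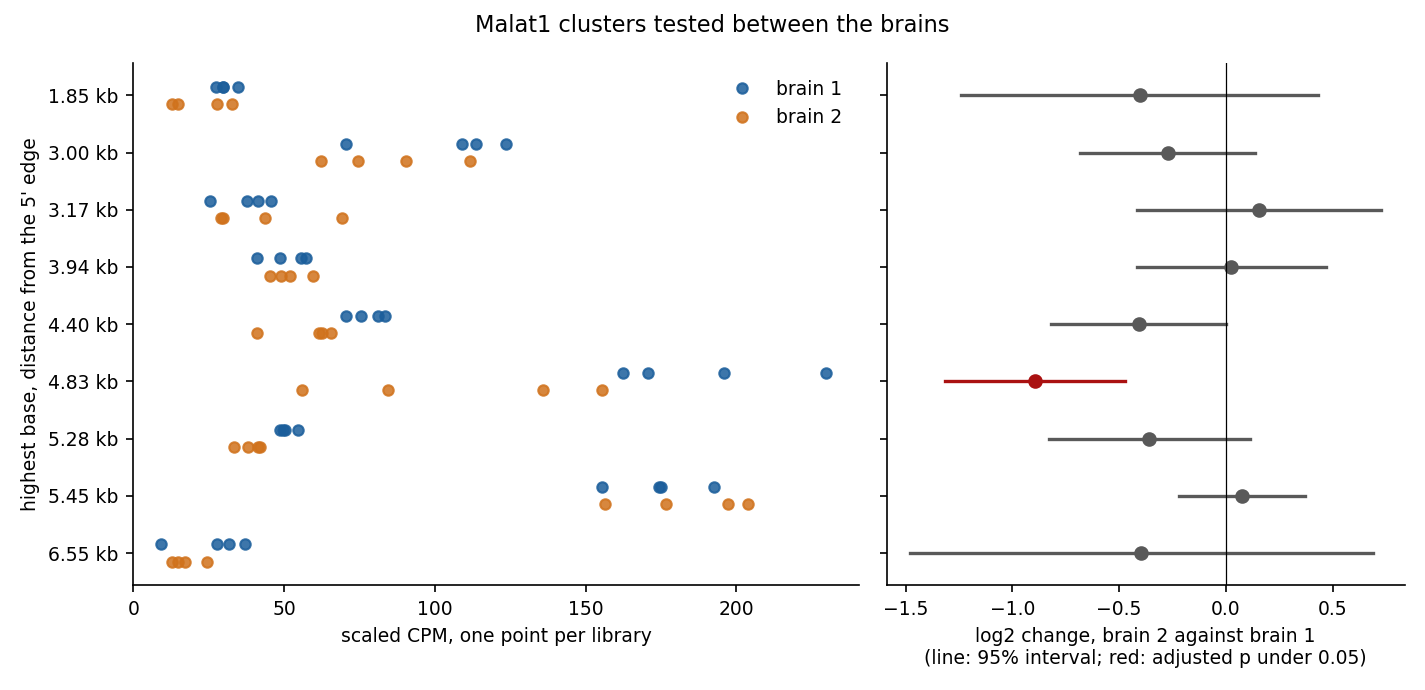
Scaled CPM of each library (one panel) and log2 change of brain 2 against brain 1 with its 95% interval (other panel) for the 9 Malat1 clusters tested, ordered by the distance of their highest base from the 5′ edge. The called cluster, in red, has 55.8 to 156 scaled CPM in brain 2 and 162 to 230 in brain 1.

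Within Malat1, the share of tags that fell in the tallest cluster was 17.2 to 20.2% in the libraries of brain 1 and 23.2 to 26.9% in those of brain 2, without overlap. This share was singled out after its values were seen and was not tested. With each position counted once per library it was 9.20 to 13.8% and 12.1 to 13.0%, and the brains overlapped. The broad cluster held 19.9 ± 1.49% of Malat1 tags in brain 1 and 14.2 ± 4.46% in brain 2 (n = 4 libraries each, SD), and the ranges overlapped. Malat1 outside the broad cluster stood at 714 ± 53.5 and 682 ± 156 CPM.

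In windows of 1 kb, 5 of Malat1 and 1 of Miat were tested and 0 of these 6 were called, where 2.75% of 764 windows were (at an unadjusted p under 0.05, 1 of the 6 and 127 of all windows). All 6 had a log2 change below 0, as did 52.1% of all windows tested. The fullest Malat1 window, from 5797001, had 377 ± 34.3 scaled CPM in brain 1 and 333 ± 64.3 in brain 2, a log2 change of −0.19 (limma adjusted p = 0.463). The window from 5800001 had 74.0 ± 14.1 and 41.9 ± 13.99, a log2 change of −0.77 ± 0.25 (SE, limma adjusted p = 0.0808). It was the one of the 6 whose brains did not overlap, which 4.32% of all windows tested did while lower in brain 2. With each position counted once per library these 2 Malat1 windows passed, at log2 changes of −0.45 (limma adjusted p = 0.0148) and −0.71 (0.0262). In that setting 211 windows of the genome were tested and 7.58% of them (16) were called. The Miat window, from 112644001, had a log2 change of −0.16 (limma adjusted p = 0.783). The fits of intervals, 1 kb windows and clusters were each scaled over their own features. In brain 1 the scaling factors were 1.00 to 1.11 in the fit with the intervals and 0.926 to 0.956 in that of clusters. In brain 2 they were 0.854 to 1.08 and 0.939 to 1.27. Log2 changes of Malat1 as an interval, in windows and in clusters are therefore not on one scale.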

How the data were processed

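The authors deposited one list of mapped tags from the 8 libraries, with 1 row per tag and its library code, from which tags were counted here. The submitters' processing notes name Bowtie and builds mm8 and mm9. Coordinates are given as mm9, counted from 1, since chromosome 1 carries tags up to position 197194446. The handling of repeated and multiply mapping reads is not given in the sources used. The members, lists and tests were chosen with earlier results of these data known.

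CPM is tags per 1000000 of the library. Intervals with 10 kb windows, 1 kb windows, and clusters (tags joined by 1 nt or more of overlap, height 10 or more) were each fitted with voom of limma 3.58.1 in R 4.3.3. A feature needed 25.0 CPM in 4 libraries and 15 tags in all. Scaling was by the trimmed mean of log ratios to a reference library, and Benjamini-Hochberg adjusted p-values under 0.05 were called. The scripts were tested on simulated data. Single values were compared by exact permutation over libraries. Alternatives were other scaling, no filter, repeated positions once, other windows, overlaps and heights, blocks, and each library left out. The named clusters are the 5 tallest of each interval and those called; of the 1 kb windows, the fullest and those called or without overlap are named, the last chosen after their values were seen.

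Libraries of the same number in both brains did not deviate together (correlations −0.03 to −0.01 over windows), so the number was not used as a pairing. In the titles, libraries 1 and 2 are marked a, and 3 and 4 are marked b, with no meaning given, and this letter was tried as a random block. No library pair matched within sampling noise. Intervals of shares cover counting error only. Sequence at the clusters is not analysed here, as no mm9 genome was used.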

Additional observations from a re-analysis of the deposited data

Results flagged for a closer look

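Of 49 groups of 4 libraries examined, 4 had 1 library far from the other 3, and chance sets apart about 1 in 20 such groups. That rate need not hold for Neat1 and Snhg11, where 1 or 2 tags can set a library apart. The Neat1 level of brain 1 was 4.26 CPM in library 4 (2 tags), against 1.83 to 2.18 CPM (1 tag each) in the others. The share of Neat1 tags in the 5′ 50% of the interval was 0% in library 4 of brain 1 and 100% in the other 3. Both Neat1 flags rest on the same 2 tags of that library. The share of Snhg11 tags in the 5′ 50% was 50% in library 1 of brain 2, which held 4 Snhg11 tags, and 0% in the other 3. In the Malat1 cluster at chr19:5797356-5797450, library 3 of brain 1 stood at 52.2 CPM and the others at 45.8 to 46.8 CPM. In tags, libraries 1 to 4 of brain 1 held 25, 21, 24 and 22 there, so the gap rests on a few tags.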

How the results depend on the processing

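The Malat1 cluster called lower in brain 2 kept its direction in each alternative in which it could be fitted. It lost its call with total tags as scaling (log2 change −0.72, limma adjusted p = 0.0763) and without the filter (−0.86, 0.0501), and ranged from −1.08 to −0.57 with a library left out. With the library number as a replicate block it was −0.85 (limma adjusted p = 0.0351). Of the clusters in the intervals, 1 passed in the main setting, 0 with total tags, without the filter or with 10 nt of overlap, 2 with positions counted once (the second from 5798165, with 4 of 72 clusters of the genome called), and 0 to 1 with a library left out. Of the 1 kb windows in the intervals 0 passed, and 2 with positions counted once, where 16 of 211 windows of the genome did.

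Several differences near 0 changed sign, and the cause was not tested. The Malat1 log2 change was −0.19 with total tags, −0.15 without the filter, and ran from −0.0996 to 0.0885 with a library left out. That of Miat was −0.20 with total tags, −0.16 without the filter, 4.3e-05 with the median of ratios, 0.0279 with positions once and −0.101 to 0.0454 with a library left out, and its 1 kb window had 0.13 with positions once. Among Malat1 clusters, the one from 5797207 gave −0.28 with positions once and −0.0083 to 0.21 with a library left out, from 5798632 −0.12 to 0.13, and from 5799467 −0.0499 to 0.35. The difference in 5′ share, in percentage points, was 2.29 for Malat1 and −2.27 for Snhg11 with positions once, and ran from −1.85 to 1.34 in Malat1, −5.05 to 1.08 in Miat and −10.1 to 10.1 in Snhg11 with a library left out. The difference in the log2 ratio of Malat1 to Miat was −0.0383 with positions once and −0.0672 to 0.0774 with a library left out, that of Malat1 to Snhg11 −0.31 to 0.0539 and that of Miat to Snhg11 −0.38 to 0.0666.

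Clusters in Malat1 numbered 32 at height 5 and 13 at height 20. Miat had 20, 4 and, with positions once, 6. Snhg11 had 3, 0 and, with positions once, 0. The mean Malat1 level was 532 CPM with positions once. Over all regions, 45 calls became 8 with total tags, 13 without the filter, 14 with positions once and 17 to 44 with a library left out. Over 1 kb windows 21 became 11 without the filter and 6 to 23 with a library left out, and over clusters 6 became 15 with total tags and 1 to 9 with a library left out. Neat1 and Snhg11 did not pass the count filter, and their permutation tests rest on 15 and 61 tags.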

Other observations

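The 10 kb windows outside the intervals whose scaled level followed an interval most closely over the 8 libraries were, for Malat1, chr15:68780001-68790000 on the plus strand (r = 0.958), for Miat, chr5:38540001-38550000 on the minus strand (r = 0.931), and for Snhg11, chr3:25710001-25720000 on the minus strand (r = 0.950). They are the highest of 3753 windows and are given as a description without a test, since 8 libraries of 2 animals share depth and scaling. Snhg11 held only 4 to 14 tags per library and did not reach the count filter, so its level carries a large counting error.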
